A study of Mus musculus with 12 samples.

Results

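The 9 genes used here to mark neutrophils (S100a8, S100a9, Slfn4, Csf3r, Retnlg, Mmp8, Ngp, Camp and Ltf) were followed in RNA sequencing of 12 mouse pancreatic tumors. They were chosen as known markers, with earlier results of these data known, and found by name, and all 9 are among the 22630 genes of the deposited tables. The tumors grew under the skin of NSG mice, immunodeficient hosts aged 8 to 10 weeks that lack lymphocytes but still make neutrophils and macrophages. Each mouse received 2 implants of 500000 KCip53-1 cells, and growth was followed to a diameter of 1.5 cm. KCip53-1 is a single cell line sorted from the pancreas of a mouse with Ptf1a-Cre, TREp53R270H and R26rtTa/rtTa, so every tumor carried the transgene for p53R270H, a mutant form of the tumor suppressor p53 that doxycycline (dox) switches on. The 4 no-dox tumors came from mice that never received dox, the 4 plus-dox tumors from mice given 0.2 g/l dox in 5% sucrose for 36 days, and the 4 off-dox tumors from mice given it for 33 days and then kept without it for 3 days. Sucrose is named for the dox water alone, so dox and sucrose cannot be told apart. Which tumors shared a mouse is not given, so n counts tumors and the p-values are too small where tumors of a group came from the same animal. RNA was taken from bulk tissue, in which fewer neutrophils and less of an RNA per neutrophil cannot be told apart.

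Neutrophils are short-lived white blood cells that are made in the bone marrow under the growth factor G-CSF, leave for the blood and enter inflamed tissue and tumors along chemokine gradients. Their granules are filled in sequence while the cell matures. Transcripts for primary granule enzymes and for late granule proteins such as Ngp, Camp and Ltf are made mainly by precursors in the marrow, whereas S100a8, S100a9, Csf3r and the chemokine receptor Cxcr2 are transcribed in the mature cell. Several of these genes are also active elsewhere: Ltf in glandular epithelium, Slfn4 and Csf3r in macrophages and monocytes.

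The promoters of 5 members are shown because their levels carry the results: Slfn4 and Csf3r differed most clearly between groups, S100a8 and S100a9 varied together, and Ltf varied apart from them. Each line holds the 250 bases before the start of the gene in mm9, on the strand of the gene, and capitals mark matches to the motifs searched on both strands. These were TTGCNNAA for C/EBP, GAGGAAGT for PU.1, TTCNNNGAA for STAT, GAAA with any 2 bases and GAAA for IRF, TGANTCA for AP-1 and TATAAA for the TATA box.
Slfn4, chr11:82988438-82988687, + strand: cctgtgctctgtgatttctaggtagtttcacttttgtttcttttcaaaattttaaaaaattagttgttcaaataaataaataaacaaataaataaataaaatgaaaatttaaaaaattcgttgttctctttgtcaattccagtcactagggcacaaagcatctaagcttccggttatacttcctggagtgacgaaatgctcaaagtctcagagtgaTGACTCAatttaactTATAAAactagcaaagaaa
Csf3r, chr4:125701653-125701902, + strand: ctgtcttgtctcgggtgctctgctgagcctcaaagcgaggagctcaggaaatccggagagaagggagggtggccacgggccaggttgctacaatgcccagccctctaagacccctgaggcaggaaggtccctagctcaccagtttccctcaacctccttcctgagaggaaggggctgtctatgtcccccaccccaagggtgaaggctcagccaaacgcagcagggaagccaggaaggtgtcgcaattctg
S100a8, chr3:90472743-90472992, + strand: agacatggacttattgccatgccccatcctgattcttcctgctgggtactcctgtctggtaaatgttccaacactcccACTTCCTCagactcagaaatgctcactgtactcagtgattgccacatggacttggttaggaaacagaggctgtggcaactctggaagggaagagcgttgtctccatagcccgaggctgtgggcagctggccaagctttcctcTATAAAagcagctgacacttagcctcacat
S100a9, chr3:90499614-90499863, - strand: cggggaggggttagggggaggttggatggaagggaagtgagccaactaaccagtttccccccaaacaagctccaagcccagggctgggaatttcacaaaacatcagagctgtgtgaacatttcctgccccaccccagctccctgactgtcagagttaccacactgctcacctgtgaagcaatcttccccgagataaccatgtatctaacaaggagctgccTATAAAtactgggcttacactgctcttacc
Ltf, chr9:110921546-110921795, + strand: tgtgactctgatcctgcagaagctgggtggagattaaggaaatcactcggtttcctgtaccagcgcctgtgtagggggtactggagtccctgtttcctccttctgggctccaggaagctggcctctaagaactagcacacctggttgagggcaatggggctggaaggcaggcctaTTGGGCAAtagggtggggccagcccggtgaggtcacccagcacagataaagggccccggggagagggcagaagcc
For 8 of the 9 members these bases were identical to the promoter in RefSeq's GRCm38 table, and the S100a9 start in the files lies 30 bases from the one used there. A TATA box was present in S100a8 and S100a9 at the same place, 30 to 25 bases before the start, and in Slfn4 at 19 to 14 bases, against 11.99% of 22627 promoters with a match anywhere in the window. Slfn4 also held an AP-1 match 34 to 28 bases before its start, a motif present in 6.12% of promoters. The C/EBP motif was found in 4 of the 9 members (Ltf, Ngp, Mmp8 and Retnlg) and in 8.72% of promoters. PU.1 matches lay in S100a8 and Mmp8, against 2.3% of promoters. No member had a match to the STAT motif (6.8% of promoters) or the IRF motif (3.15%). The Csf3r window had no match to any of these motifs.

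The members lie on 5 chromosomes. S100a8 (chr3:90472993-90473956) and S100a9 (chr3:90496555-90499613), the subunits of calprotectin, are neighbors 22.6 kb apart with 0 genes between them. Camp, Ngp and Ltf lie along chromosome 9, with gaps of 570.3 kb between Camp and Ngp and 596.3 kb between Ngp and Ltf. Slfn4 (chr11:82988688-83003718) shares 8.53% of its 50-base stretches with other transcripts, mostly Slfn3 and Slfn2, so part of its count could belong to a relative. For Csf3r (chr4:125701903-125721684) the shared part was 1.54%, and for the other 7 members 0 stretches were shared.

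Counts on genes summed to 19845923 at the lowest and 33137609 at the highest per tumor. By principal component analysis, plus-dox tumor 2 and off-dox tumor 4 stood apart on the first component (49.8% of the variance), so results are also given without them. Genes took 88.4% to 89.4% of the mapped reads in the no-dox group, 82.2% to 87.1% in the plus-dox group and 81.1% to 85.8% in the off-dox group. This share therefore separates the no-dox tumors from the other 8, and its part in the results was not tested.

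Of the 9 members, 6 had at least 10 counts in every tumor (S100a8, S100a9, Csf3r, Slfn4, Ltf and Mmp8), and 3 (Camp, Ngp and Retnlg) were at 0 counts in at least 1 tumor. Levels are given as RPKM, a read density scaled to exon length and to the mapped reads of a tumor, which allows genes to be compared with each other. Averaged over the 12 tumors, S100a9 had the highest level (20.4 RPKM), followed by S100a8 (11.5), Ltf (6.86), Csf3r (5.61), Slfn4 (3.63), Mmp8 (0.361), Retnlg (0.290), Camp (0.0832) and Ngp (0.0343). S100a9 exceeded S100a8 in each of the 12 tumors. The ranges of S100a8 and Ltf, of Ltf and Csf3r, of Csf3r and Slfn4, of Mmp8 and Retnlg, of Retnlg and Camp, and of Camp and Ngp overlapped. The order of the means within those pairs therefore need not hold in each tumor, and it was not tested.

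**Figure D1:**
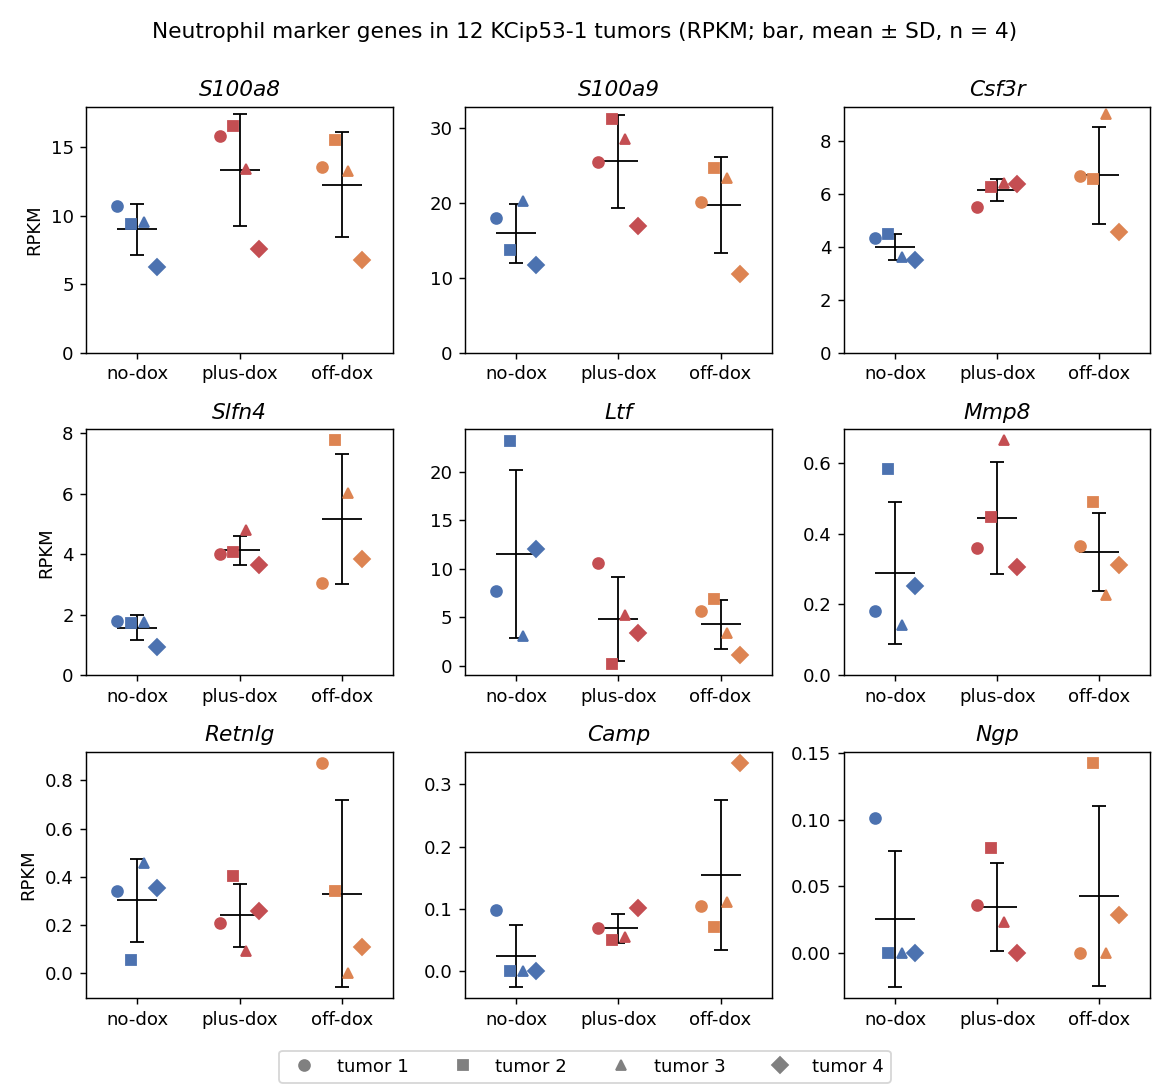
RPKM of the 9 members (vertical axes, each with its own scale) in no-dox, plus-dox and off-dox tumors; each point is 1 tumor, and bars give the mean ± SD of 4 tumors. Slfn4 and Csf3r are higher in all 8 plus-dox and off-dox tumors than in the no-dox tumors, Ltf varies most, and Camp and Ngp stay below 0.35 RPKM.

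Slfn4, a Schlafen-family gene expressed in myeloid cells, had the lowest p of the members in plus-dox and in off-dox against no-dox tumors. Its level was 1.81, 1.73, 1.77 and 0.951 RPKM in no-dox tumors 1 to 4. The plus-dox tumors had 4.00, 4.07, 4.79 and 3.66 RPKM. The off-dox tumors had 3.06, 7.79, 6.03 and 3.83 RPKM. The no-dox tumors thus lay below all 8 others, whereas the plus-dox and off-dox ranges overlapped. By edgeR, Slfn4 was 3.37-fold higher in off-dox than in no-dox tumors (log2 difference 1.75, SE 0.286, adjusted p = 0.07865), which passed the threshold for a call (adjusted p under 0.1, more than 1.5-fold, mean RPKM over 0.25). The difference between plus-dox and no-dox was 2.67-fold (log2 1.42, SE 0.284). Its unadjusted p of 0.0003096 ranked 6 among 17561 genes, but the adjusted p was 0.3219 and the gene was not called. DESeq2 called it in this comparison (adjusted p = 0.003837), as did limma-voom (adjusted p = 0.09372).

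Csf3r, the receptor for G-CSF, had the smallest spread of the members. No-dox tumors had 4.34, 4.47, 3.62 and 3.50 RPKM, plus-dox tumors 5.52, 6.26, 6.40 and 6.39, and off-dox tumors 6.67, 6.58, 9.02 and 4.55. The lowest off-dox tumor, number 4, was just above the highest no-dox tumor, and the plus-dox tumors were all clear of the no-dox range. Csf3r was called 1.72-fold higher in off-dox than in no-dox tumors (log2 0.78, SE 0.167, edgeR adjusted p = 0.08318). In plus-dox against no-dox it was 1.56-fold higher (95% interval 1.22 to 2.01) without a call (adjusted p = 0.3219), and DESeq2 without moderation called it (adjusted p = 0.06674). Within groups its SD was 0.242 on the log2 CPM scale, near the median over all genes of 0.247.

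Both calls depended on single tumors. They ended (adjusted p of 0.1006 to 0.2187) when any of no-dox tumors 1 to 4, plus-dox tumors 3 and 4, or off-dox tumors 2 to 4 was left out, and in a fit of only the 8 tumors compared (adjusted p = 0.1462). They held without plus-dox tumor 1, plus-dox tumor 2 or off-dox tumor 1 (4.49% of all genes called without the last), and without the pair that stood apart (adjusted p = 0.07171 for both genes, 2.6% of all genes called).

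S100a8 and S100a9 encode calprotectin, the most abundant protein of the neutrophil cytosol. S100a8 was at 10.7, 9.41, 9.54 and 6.28 RPKM in no-dox, 15.8, 16.5, 13.4 and 7.57 in plus-dox, and 13.5, 15.5, 13.3 and 6.72 in off-dox tumors. S100a9 was at 18.0, 13.7, 20.2 and 11.8 RPKM in no-dox, 25.5, 31.2, 28.6 and 16.9 in plus-dox, and 20.2, 24.7, 23.4 and 10.5 in off-dox tumors. For both genes tumor 4 was the lowest of its group, and the groups overlapped in every comparison. S100a9 was 1.63-fold higher in plus-dox than in no-dox tumors (95% interval 1.07 to 2.48, unadjusted p = 0.02749), but its edgeR adjusted p was 0.3367. For S100a8 the same fold was 1.50 (95% interval 0.958 to 2.36, adjusted p = 0.402). Off-dox against no-dox gave 1.39-fold for S100a8 (adjusted p = 0.3855) and 1.25-fold for S100a9 (adjusted p = 0.5246). Neither gene was called in any comparison.

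Ltf encodes lactoferrin, the iron-binding protein of secondary granules. Its level was 7.71, 23.2, 3.02 and 12.1 RPKM in no-dox, 10.6, 0.156, 5.24 and 3.34 in plus-dox, and 5.60, 6.87, 3.40 and 1.13 in off-dox tumors. It was lowest in plus-dox tumor 2 and off-dox tumor 4, the pair that stood apart, and its highest level was 149-fold above its lowest. Its mean was 11.5 ± 8.65 RPKM in no-dox tumors, 4.83 ± 4.36 in plus-dox tumors and 4.25 ± 2.53 in off-dox tumors (SD, n = 4). The log2 difference was -1.24 (SE 0.876, edgeR adjusted p = 0.5161) for plus-dox and -1.41 (SE 0.881, adjusted p = 0.3836) for off-dox against no-dox. Without the pair, the log2 differences were -0.85 and -1.09. Neither passed the test. The within-group SD of Ltf, 1.765 on the log2 CPM scale, was larger than that of 98.8% of 14548 genes.

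The other late granule genes were low, and Camp and Ngp were at the edge of detection. Mmp8, neutrophil collagenase, had 10 to 60 counts per tumor and means of 0.289 ± 0.201 RPKM in no-dox tumors, 0.444 ± 0.159 in plus-dox tumors and 0.348 ± 0.110 in off-dox tumors (SD, n = 4). Its groups overlapped, with adjusted p of 0.5041 in plus-dox and 0.7338 in off-dox against no-dox. Camp, which encodes the antimicrobial peptide precursor cathelicidin, had 2, 0, 0 and 0 counts in the no-dox tumors, and its summed counts were 4.77 over the plus-dox and 10.3 over the off-dox tumors. Ngp, neutrophilic granule protein, had summed counts of 4, 5 and 5 in no-dox, plus-dox and off-dox tumors. A count of 0 allows up to 3 counts, which for Camp corresponds to 0.135 to 0.210 RPKM and for Ngp to 0.0697 to 0.108 RPKM, depending on the depth of the tumor. These limits cover counting error only. A fitted fold change of either gene would rest on these few counts and on the prior count, so none is read as a difference between groups, and both genes lay under the RPKM limit for a call. Retnlg, a resistin-like secreted protein of neutrophils, had 0 to 13 counts per tumor and group sums of 24, 17 and 20 in no-dox, plus-dox and off-dox tumors. A difference between groups was not detectable for it at this depth.

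**Figure D2:**
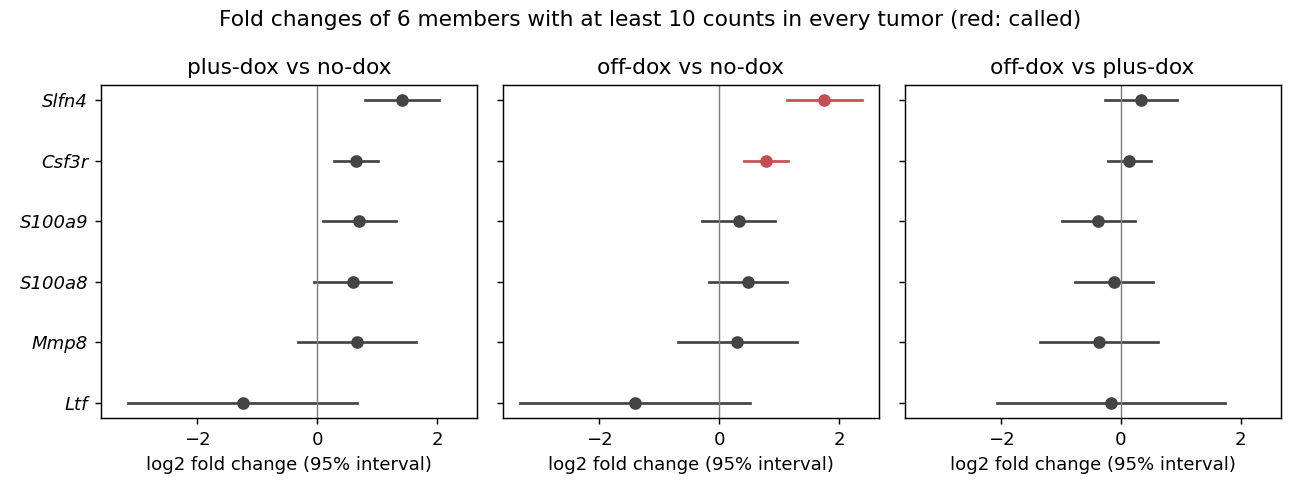
Log2 fold change between groups (horizontal axis, edgeR) of the 6 members with at least 10 counts in every tumor, 1 panel per comparison; points are estimates, lines 95% intervals, and red marks a call. The calls are Slfn4 and Csf3r in off-dox against no-dox, and the interval of each of the 6 genes includes 0 in off-dox against plus-dox.

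Counted together, all 9 members passed the filter of 10 summed counts. In plus-dox against no-dox, 0 of the 9 were called by edgeR and 3 had an unadjusted p under 0.05, against 0% and 8% (higher) of the 17561 genes tested. DESeq2 called 2 members without moderated fold changes (0.729% of all genes) and 1 with them (0.512%). In off-dox against no-dox, 2 of 9 were called, both higher, where 1.34% of all genes were called and 1.03% were called higher. At an unadjusted edgeR p under 0.05, 3 of 9 were higher, against 10.9%. These were Slfn4, Csf3r and Camp, and the few counts of Camp are not read as a difference between groups. In off-dox against plus-dox 0 of 9 were called by edgeR or DESeq2, with 0% of all genes called by edgeR and 0.0342% (without moderation) or 0.0228% (with it) by DESeq2, and 0 members had an unadjusted p under 0.05, against 1.25% of all genes that were higher. For 2 members (Slfn4 and Csf3r) the plus-dox tumors were all above the no-dox range, as for 4.3% of all genes, and the off-dox tumors were above it for the same 2, as for 4.99%. The median log2 difference over the members was 0.64, 0.47 and 0.14 in plus-dox against no-dox, off-dox against no-dox and off-dox against plus-dox, beside 0.01, 0.01 and 0.00 over all genes. With Camp and Ngp not counted, a choice made after seeing the data, the median over the other 7 members was 0.64, 0.33 and -0.11, so its sign in off-dox against plus-dox turned. The first 2 comparisons share the no-dox tumors.

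Over the 12 tumors the members did not vary as 1 group. These correlations are descriptions over log2 CPM in the same libraries, and part of each can come from the difference between groups. S100a8 and S100a9 went together closely (Pearson r = 0.909, Spearman rho = 0.93), also after the group means were removed (r = 0.915), and the ratio of S100a9 to S100a8 RPKM ran only from 1.45 to 2.24. Csf3r and Slfn4 correlated over all tumors (r = 0.857, rho = 0.804), but less within groups (r = 0.432). The ratio of Slfn4 to Csf3r RPKM was 0.392 ± 0.09 in no-dox tumors, 0.674 ± 0.08 in plus-dox tumors and 0.789 ± 0.307 in off-dox tumors (SD, n = 4). S100a8 and S100a9 correlated with Csf3r and Slfn4 at r = 0.605 to 0.632. Ltf had negative r with these 4 genes, from -0.215 for S100a8 to -0.362 for Slfn4. Within groups its r was near 0: 0.021 with S100a8, -0.105 with S100a9, 0.138 with Csf3r and 0.025 with Slfn4. Mmp8 had r = 0.374 to Csf3r and 0.021 to Ltf over all tumors, but 0.056 and 0.317 within groups, so its place was not settled.

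**Figure D3:**
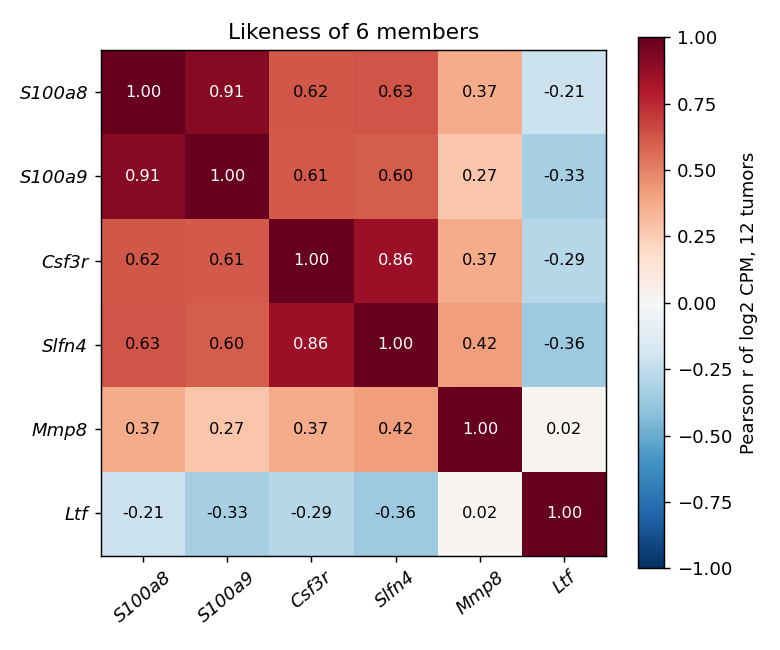
Pearson r between 6 members over the 12 tumors, computed on log2 CPM (color scale from -1 to 1, value printed in each cell). S100a8 with S100a9 (0.909) and Csf3r with Slfn4 (0.857) are the closest pairs, and Ltf is negative with all 4 of these genes. With the group means removed (not drawn), r of Ltf with these 4 genes ran from -0.105 to 0.138.

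The genes most like each member in the remaining transcriptome differed accordingly. For Csf3r the nearest was Cxcr2 (r = 0.979, rho = 0.93), which encodes the receptor that guides neutrophils to CXC chemokines, and it remained close within groups (r = 0.954) and without the 2 tumors farthest from the median (r = 0.976). The ratio of Cxcr2 to Csf3r RPKM stayed between 0.332 and 0.429. For Slfn4 the nearest were Igsf6 (r = 0.949), B430306N03Rik (r = 0.943) and Cd209c (r = 0.937). S100a9 was nearest to Dapk2 (r = 0.888) and Higd1b (r = 0.874). S100a8 was nearest to Prkg1 (r = 0.885), Ryr1 (r = 0.876), the calcium release channel of skeletal muscle, and Actn3 (r = 0.871), a protein of fast muscle fibers. Ltf was nearest to Fermt1 (r = 0.98), which encodes an epithelial adhesion protein, Blk (r = 0.975) and Slc44a4 (r = 0.973). For the mean standardized level of the 9 members the nearest gene was Cxcl2 (r = 0.916), a neutrophil chemokine, followed by Tbx6 (r = 0.869), Ankrd61 (r = 0.866), Actn3 (r = 0.855), Cd300lf (r = 0.847), Clec4e (r = 0.843), 4930562C15Rik, Ccdc163, Pcdhga4 and Napg (r = 0.826 to 0.836). Cd300lf and Clec4e encode myeloid surface receptors.

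Ltf went with most epithelial markers of the tumors and not with the neutrophil receptors. Its r was positive with 8 of 8 tumor epithelial markers (median 0.811, within groups 0.827) and with 0 of 11 neutrophil surface receptors (median -0.493). Over the epithelial markers r ran from 0.225 to 0.949, and within groups from -0.053 to 0.976. The lowest were the keratin genes with the highest levels: Krt18 (0.225, within groups -0.053), Krt8 (0.411 and 0.137) and Krt19 (0.486 and 0.366). With Epcam, an epithelial surface protein chosen as the example after its values were seen, r was 0.948 (rho = 0.776), and 0.732 without plus-dox tumor 2 and off-dox tumor 4. Of the 7 other secondary and tertiary granule genes compared, 4 had a positive r with Ltf (Lcn2, Pglyrp1, Olfm4 and Itgb2l, 0.616 to 0.949) and 3 a negative r (Mmp9 -0.858, Chi3l3 -0.757 and Mmp25 -0.505). For Lcn2 and Pglyrp1 r was 0.923 and 0.949, and 0.689 and 0.775 without that pair. Lcn2 was at 14.8 RPKM in plus-dox tumor 2 and 32.2 in off-dox tumor 4, against 106 to 538 in the other 10 tumors. By contrast, S100a8, S100a9, Csf3r and Slfn4 had a negative r with all 8 epithelial markers, with medians of -0.271 to -0.432. With the group means removed the medians were near 0, at -0.03 for S100a8, -0.096 for S100a9, 0.058 for Csf3r and -0.108 for Slfn4. Single markers differed: within groups r ran from -0.701 (Krt18) to 0.142 (Muc1) for Csf3r, which had -0.515 with Krt8. For Slfn4 it ran from -0.497 (Krt8 and Krt18) to 0.063 (Krt7). Slfn4 had a positive r with 11 of 11 neutrophil surface receptors (median 0.748), and so did S100a8 (median 0.515) and S100a9 (median 0.547). Within groups these medians were 0.728, 0.328 and 0.484. The positive sign was not particular to these receptors. S100a8 and S100a9 were also positive with 9 of 9 macrophage markers (medians 0.211 and 0.189) and 5 of 5 monocyte markers (0.137 and 0.333). Slfn4 was positive with 6 of 9 (median 0.392) and 4 of 5 (0.259). Within groups the medians with the macrophage markers were 0.143 for S100a8, 0.261 for S100a9 and 0.247 for Slfn4. With the monocyte markers they were 0.277, 0.265 and 0.564.

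**Figure D4:**
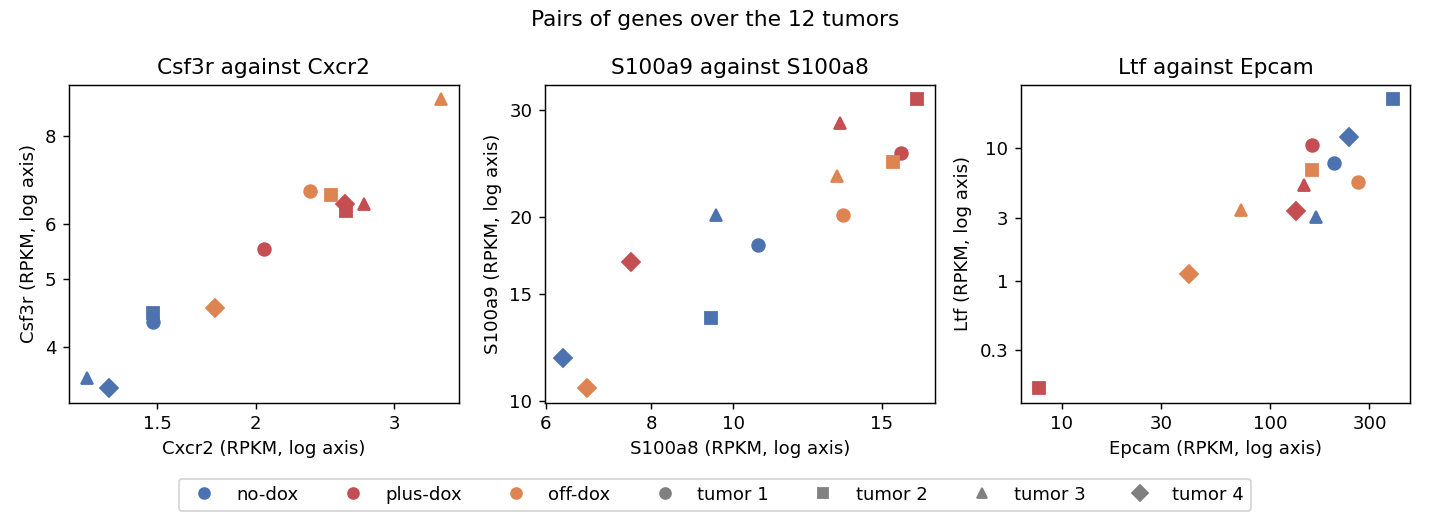
RPKM of Csf3r against Cxcr2, S100a9 against S100a8 and Ltf against Epcam on logarithmic axes; each point is 1 tumor, colored by group and shaped by tumor number. The points of each panel lie along a rising line, and in the third panel plus-dox tumor 2 (0.156 RPKM of Ltf, 7.76 of Epcam) is far below the rest.

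Further genes of neutrophil biology were counted from 6 lists, 50 genes in all, of which 46 could be tested. In plus-dox against no-dox 0 were called by edgeR and 10 had an unadjusted p under 0.05 and were higher, beside 8% of all genes. DESeq2 called 3 with and without moderation, beside 0.512% and 0.729% of all genes. In off-dox against no-dox 5 were called, all higher, beside 1.03% of all genes, and at an unadjusted p under 0.05 10 were higher, beside 10.9% of all genes, and 1 was lower. The count of 5 became 0 when any of the 9 tumors that ended the calls of Slfn4 and Csf3r was left out and in the fit of only 8 tumors. In off-dox against plus-dox 0 were called, and 1 gene was higher and 2 were lower at an unadjusted p under 0.05. The 5 are named because they were called. Cxcr2 was 1.37 RPKM on average in no-dox tumors and 2.51 in off-dox tumors (log2 0.90, SE 0.193, adjusted p = 0.08318), and its off-dox tumors were all higher. Il1b, which encodes interleukin-1 beta, was 13.4 and 24.0 RPKM (log2 0.87, adjusted p = 0.08838). The chemokine genes Cxcl2 (0.577 and 2.18 RPKM, log2 1.95, adjusted p = 0.08838) and Cxcl3 (0.382 and 3.48 RPKM, log2 3.19, adjusted p = 0.08904) were highest in off-dox tumor 2, at 4.68 and 8.90 RPKM. Clec4e was 1.02 and 2.38 RPKM (log2 1.25, adjusted p = 0.09721), and here the groups overlapped.

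Among the 11 neutrophil surface receptors measured, 2 were called in off-dox against no-dox (Cxcr2 and Clec4e), and the median log2 difference was 0.54. Ly6g, the usual surface marker of mouse neutrophils, was on the list of 12 receptors but not among the 11 matched in the data, so it has no value here. The receptors with the highest levels, Ccr1 (28.7 ± 4.67 RPKM in no-dox tumors and 35.2 ± 7.50 in off-dox tumors) and the integrin gene Itgam (14.6 ± 1.69 and 20.9 ± 6.51 RPKM), did not pass the test (adjusted p = 0.2496 and 0.1469). Of the 7 growth factors and chemokines tested, 2 were called in off-dox against no-dox (Cxcl2 and Cxcl3). Csf3, which encodes G-CSF, the ligand of Csf3r, was at 1.69 ± 0.190, 1.59 ± 0.749 and 2.12 ± 0.290 RPKM in no-dox, plus-dox and off-dox tumors, and was not called (adjusted p = 0.9515 and 0.5025 against no-dox). Cxcl1 and Cxcl5, ligands of Cxcr2, were at 22.7 ± 4.22 and 24.6 ± 6.02 RPKM in no-dox tumors and at 17.9 ± 7.37 and 17.7 ± 8.54 in off-dox tumors, also without a call. Il17a was at 0 counts in every tumor.

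None of the 4 primary granule genes tested was called in any comparison by edgeR, and 1 (Ctsg, in off-dox against no-dox) had an unadjusted p under 0.05. The gene for myeloperoxidase, Mpo, was at 0.0309 ± 0.0135, 0.0627 ± 0.0259 and 0.0532 ± 0.0431 RPKM in the 3 groups, while Prtn3 and Ctsg, genes of granule proteases, reached 3.48 and 2.48 RPKM. Of the 8 other secondary and tertiary granule genes tested, 0 were called, with 3 at an unadjusted p under 0.05 in plus-dox and 1 in off-dox against no-dox. Mmp9, gelatinase B, was at 173 RPKM in plus-dox tumor 2 and 111 in off-dox tumor 4, above the 9.77 to 32.5 RPKM of the other tumors, which is opposite to Ltf and Lcn2. The 6 granulopoietic transcription factors had 0 calls (1 higher and 1 lower at an unadjusted p under 0.05 in off-dox against no-dox), with Sfpi1 (PU.1) at 28.6 ± 3.48, 32.8 ± 6.96 and 29.3 ± 7.48 RPKM. Cebpd was lower in all off-dox than in all no-dox tumors (31.5 ± 7.73 against 16.7 ± 6.17 RPKM, log2 -0.89, adjusted p = 0.1168), without a call.

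Relatives of the members were compared by family. Of 6 other Schlafen genes, Slfn8 was called higher in off-dox than in no-dox tumors (2.73 and 4.03 RPKM, log2 0.59, adjusted p = 0.09674), and is named for that call. Slfn2, the most abundant Schlafen gene, was at 76.7 ± 5.84 RPKM in no-dox tumors and 59.7 ± 13.2 in off-dox tumors (log2 -0.34, adjusted p = 0.3647), the opposite sign to Slfn4. None of the 9 interferon-stimulated genes listed, a program that includes Schlafen genes, was called by edgeR, 0 had an unadjusted p under 0.05, and their median log2 difference was -0.31 in plus-dox and -0.32 in off-dox against no-dox. Of the 11 other S100 genes 0 were called, and 3 were lower at an unadjusted p under 0.05 in plus-dox and in off-dox against no-dox. The share of all genes that were lower at this p is not given here. Counts of lower genes, in this and the other lists, thus have no background beside them. S100a6, the highest, was at 2537 ± 804, 2169 ± 282 and 2597 ± 294 RPKM in the 3 groups, far above S100a8 and S100a9. In the resistin family, Retnla was at 18.2 ± 7.48, 6.93 ± 6.76 and 6.58 ± 4.59 RPKM without a call.

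Markers of other cells were summed in the same tumors. The summed RPKM of 8 tumor epithelial markers was 2315 to 3167 in the no-dox group, 1364 to 2064 in the plus-dox group and 1083 to 2701 in the off-dox group, with 0 of 8 called and 1 lower at an unadjusted p under 0.05 in each comparison with no-dox. Krt8, one of the keratin genes in this list, was at 926 ± 66.1, 550 ± 39.7 and 544 ± 202 RPKM. The summed RPKM of 9 macrophage markers was 1016 to 1379, 1042 to 1288 and 966 to 1637 in the 3 groups, and 1 of the 9 (Mertk, log2 0.77, adjusted p = 0.08969) was called in off-dox against no-dox. The 5 monocyte markers summed to 814 to 1238, 382 to 1210 and 466 to 1282 RPKM with 0 called. The 5 skeletal muscle markers summed to 7.79 to 147 RPKM in the no-dox group, 111 to 365 in the plus-dox group and 8.13 to 1004 in the off-dox group, with 0 called and 4 higher at an unadjusted p under 0.05 in off-dox against no-dox. Of the markers tested for eosinophils, basophils and mast cells (7), erythroid cells (2) and adipocytes (4), 0 were called, and 0 had an unadjusted p under 0.05. The epithelial, macrophage, monocyte and muscle lists held no gene at 0 in every tumor, whereas Hba-a1 and Hba-a2 of the erythroid list were at 0 in all 12. Alas2 of the erythroid list was above 0 in every tumor, from 0.442 RPKM in a no-dox tumor to 4.01 in a plus-dox tumor. The study counted only exonic spans that were unambiguous, and whether this set Hba-a1 and Hba-a2 to 0 was not tested. The part of the marked cell types in the differences of Slfn4, Csf3r, S100a8 and S100a9 was not tested. Csf3r had a median r of 0.492 with the 9 macrophage markers and of 0.524 with the 11 neutrophil surface receptors, and within groups of 0.621 and 0.249.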

How the data were processed

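The study's polyA+, unstranded libraries were sequenced on a HiSeq 4000, and the submitters' processing notes name CASAVA 1.8.2, TopHat 1.4.1, Bowtie 0.12.8 and bedtools 2.16.2 with mm9. The authors deposited an expected count per gene, which is not always whole, and an RPKM value. Duplicates and multi-mapped reads are not described in the sources used here. Counts were rounded to whole numbers. Tests used edgeR 4.0.16 (TMM, at least 10 summed counts, quasi-likelihood F test, 1 fit of the 3 groups) with Benjamini-Hochberg adjustment over 17561 genes. A call needed an adjusted p under 0.1, over 1.5-fold, mean RPKM over 0.25 and length over 250 bp, the limits of the study. Log2 CPM used a prior count of 2. DESeq2 1.42.0, limma-voom 3.58.1, other filters, scalings and samples were alternatives, and the scripts were tested on simulated data. The members and gene lists were chosen with earlier results of these data known. Named genes are the members, the 3 highest genes of each list, the genes most like the members, and genes named for a call. The study describes the replicates as tumors, 4 per group, and each p-value weighs a difference between groups against the spread between tumors. TATA and AP-1 motifs were added after other results were seen. A further allele of the line, shared by all groups, is not reported here.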

Additional observations from a re-analysis of the deposited data

Results flagged for a closer look

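In 27 sets of a member and a group of 4 tumors, 3 had a tumor far from the others on the log2 CPM scale, judged by the gap to the nearest tumor as a share of the range of the group, where chance gives about 1 in 20. Camp in no-dox tumor 1 had a share of 1.0, since its 2 counts stand against 0 in the other no-dox tumors. Ngp in no-dox tumor 1 likewise had a share of 1.0, with 4 counts against 0. Where all other tumors of a group tie at 0 the share is always 1.0, so the rate of 1 in 20 does not apply to these flags of Camp and Ngp. Slfn4 in no-dox tumor 4 was the lowest of its group (0.951 RPKM, share 0.866).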

How the results depend on the processing

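In plus-dox against no-dox, DESeq2 without moderation called 128 genes, 2 members and 3 other neutrophil genes, DESeq2 with moderation 90, 1 and 3, and limma-voom 112, 2 and 1, where edgeR called 0 of each. Slfn4 passed in all 3 (log2 1.42, 1.04 and 1.35) and Csf3r in DESeq2 without moderation (0.64) and limma-voom (0.61). The members' median log2 difference was 0.34 with moderation. In off-dox against no-dox, 0 genes, members and other neutrophil genes passed at an adjusted p under 0.05. DESeq2 called 615 genes without and 396 with moderation, limma-voom 641 genes and 9 other neutrophil genes, the fit without a count filter 122 and 1, the fit of genes with 10 counts in every tumor 365, and the fit of only the 8 tumors 3, 0 members and 0 other neutrophil genes. Without plus-dox tumor 2 and off-dox tumor 4, 457 genes were called. In off-dox against plus-dox DESeq2 called 6 genes without and 4 with moderation. The cause was not tested.

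Leaving out each of the 12 tumors in turn gave 0 to 3 genes called in plus-dox against no-dox, 0 to 789 in off-dox against no-dox (0 to 2 members, 0 to 7 other neutrophil genes) and 0 to 1 in off-dox against plus-dox. The 789 came without off-dox tumor 1. The members' median log2 difference ran from 0.20 to 0.67 in off-dox against no-dox and from -0.25 to 0.27 in off-dox against plus-dox. Slfn4 ran from 1.49 to 1.94 and Csf3r from 0.61 to 0.92 in off-dox against no-dox.

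Signs turned only for values that were not called. Those of Ngp rest on 0 to 4 counts per tumor and are no measure of a change. Leaving out tumors, Ngp ran from -0.32 to 3.41 in plus-dox against no-dox and from -1.03 to 3.62 in off-dox against no-dox, where Retnlg ran from -0.98 to 0.52. In off-dox against plus-dox the ranges were -0.32 to 0.08 for S100a8, -0.57 to 0.52 for Ltf, -1.46 to 0.95 for Ngp, -0.033 to 0.272 for Csf3r and -0.65 to 0.86 for Retnlg. With limma-voom, Ngp was -0.32 in plus-dox and Retnlg -0.25 in off-dox against no-dox, and S100a8 was 0.31, Ltf 0.18 and Retnlg -0.025 in off-dox against plus-dox. Without plus-dox tumor 2 and off-dox tumor 4, Ngp was -0.32 in plus-dox against no-dox and S100a8 0.21 in off-dox against plus-dox.

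The deviations of tumors of different groups with the same replicate number had a mean r of -0.088 over 12 pairs, from -0.449 to 0.566. With different replicate numbers the mean r was 0.043 over 36 pairs, from -0.68 to 0.665. These ranges overlap, and whether the numbers pair the tumors was not tested beyond these values. In a fit with the replicate block, 0 genes, 0 members and 0 other neutrophil genes were called in off-dox against no-dox, where Slfn4 was 1.72, Csf3r 0.75 (adjusted p = 0.1329 for both) and Retnlg -0.22, and no other call of a member changed. Depth limits Camp, Ngp and Retnlg, whose counts stayed at 13 or fewer per tumor.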

Other observations

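Retn, which encodes resistin and was looked at after its values were seen, varied far more than its relative Retnlg: it was at 18.6, 1.21, 13.7 and 0.021 RPKM in no-dox, 7.64, 3.77, 0.155 and 9.64 in plus-dox, and 0.0633, 1.35, 1.54 and 1.48 in off-dox tumors. Ctsg, a primary granule protease gene, was at 0.559, 0.630, 1.55 and 0.215 RPKM in no-dox and at 0.772, 2.48, 1.94 and 1.98 in off-dox tumors (log2 1.31, SE 0.567, edgeR adjusted p = 0.2215), without a call. Krt14, a basal keratin gene named for its call, was lower in off-dox than in no-dox tumors (31.6 and 9.38 RPKM, log2 -1.72, adjusted p = 0.08969), with 1 of 8 epidermal markers called.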
